A study of Glycine max with 6 samples.

Results

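The loci described here are those of 4 stretches of gene IDs in the soybean Glyma1 gene models that hold tandem arrays of SAUR (small auxin up RNA) genes. They run from Glyma06g43100 to Glyma06g43520 on chromosome 6, from Glyma09g35280 to Glyma09g35630 on chromosome 9, from Glyma12g03770 to Glyma12g03990 on chromosome 12 and from Glyma0079s00200 to Glyma0079s00380 on the unplaced scaffold 79, with the single locus Glyma0101s00200 of scaffold 101 added. Every probe whose gene ID lay in a stretch was taken, changed or not, which gave 121 loci of 66195 probes. The stretches were chosen on the drought response in these same leaves, so all differences between drought-stressed and well-watered plants below are a description of how the arrays behaved and carry no test. Leaf RNA came from drought-stressed plants 1, 2 and 4 and from well-watered plants 14, 15 and 16 of cultivar Williams 82. There was 1 Affymetrix soybean array per plant, from the fourth trifoliate. The drought treatment began at the late vegetative stage V6. By the time leaves were taken, according to the paper, the plants were beginning to bloom. The drought-stressed plants had gone 6 days without water, down to a soil moisture of 5%, while the well-watered plants kept their daily watering. The sample labels give the age at V6 as 28 days after sowing in one place and 35 days in another, and they do not say which plants shared a pot of 3.

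SAUR genes were first described in soybean, as short transcripts that appear within minutes of auxin treatment in elongating tissue. They encode small proteins, most of the genes have no introns, and their mRNAs turn over fast. In *Arabidopsis*, several SAUR proteins promote cell expansion by inhibiting phosphatases that act on the proton pump of the plasma membrane, and many family members lie side by side in near-identical tandem copies. Of the 121 loci, 25 were given a match to an auxin-induced protein in the study's table of hormone genes, 24 of them to the *Arabidopsis* SAUR gene AT4G38840 and 1 to AT5G18020. That table lists only hormone-related genes that changed in these leaves. The other 96 loci, among them all 23 of chromosome 12, are not in it. They had no annotation here and are called by their IDs.

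Each deposited log2 signal is given relative to the median of its probe in the 6 plants, so 0 is the middle of the 6 values and no absolute level can be read from them. For the same reason the leaf label could not be checked against marker levels. The median of all probes lay at -0.0069, -0.0042 and -0.029 in drought-stressed plants 1, 2 and 4, against 0.13, 0.029 and -0.097 in well-watered plants 14, 15 and 16. A probe was called where the groups differed by at least 2-fold, a log2 difference of 1, with an adjusted p under 0.05 from limma over all probes. In whole leaves, less RNA of a gene per cell and fewer cells that make it cannot be told apart.

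Not every locus was measured on its own. The 121 loci had 115 distinct profiles over the 6 plants, because 6 profiles were each deposited for a pair of loci with all 6 values equal. In 5 of these pairs a chromosome 6 locus had the values of a scaffold 79 locus. They were Glyma06g43100 with Glyma0079s00290, Glyma06g43160 with Glyma0079s00300, Glyma06g43330 with Glyma0079s00350, Glyma06g43370 with Glyma0079s00370 and Glyma06g43470 with Glyma0079s00320. The sixth pair was Glyma06g43390 with Glyma06g43460, both of chromosome 6. Glyma0101s00200 had the same 6 values as Glyma12g14560, a SAUR locus of chromosome 12 outside the interval. In all, 13 of the 121 loci (10.7%) had a profile that another probe of the array also had, against 213 of all 66195 probes (0.322%). Loci that share a profile cannot be told apart, and each profile is counted once below.

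Of the 115 distinct profiles, 30 were called lower in drought-stressed leaves, 1 was called higher and 84 were not called. Over all 66195 probes, 5.14% were called lower and 4.33% higher. In 59 profiles (51.3%) every drought-stressed plant lay below every well-watered plant, as it did for 16.9% of all probes. The log2 difference, drought-stressed minus well-watered, ran from -2.62 to 1.78 with a median of -0.54, beside a median of -0.050 over all probes, and it was below 0 in 95 profiles. These shares come from the contrast that drew the intervals and say nothing further about them. The count moved with single plants, since 19 profiles were called lower without drought-stressed plant 1 and 34 without drought-stressed plant 4. Of the 30, 17 were called lower in all 6 fits that left out 1 plant. The share of all probes called in these fits was not recorded.

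**Figure D1:**
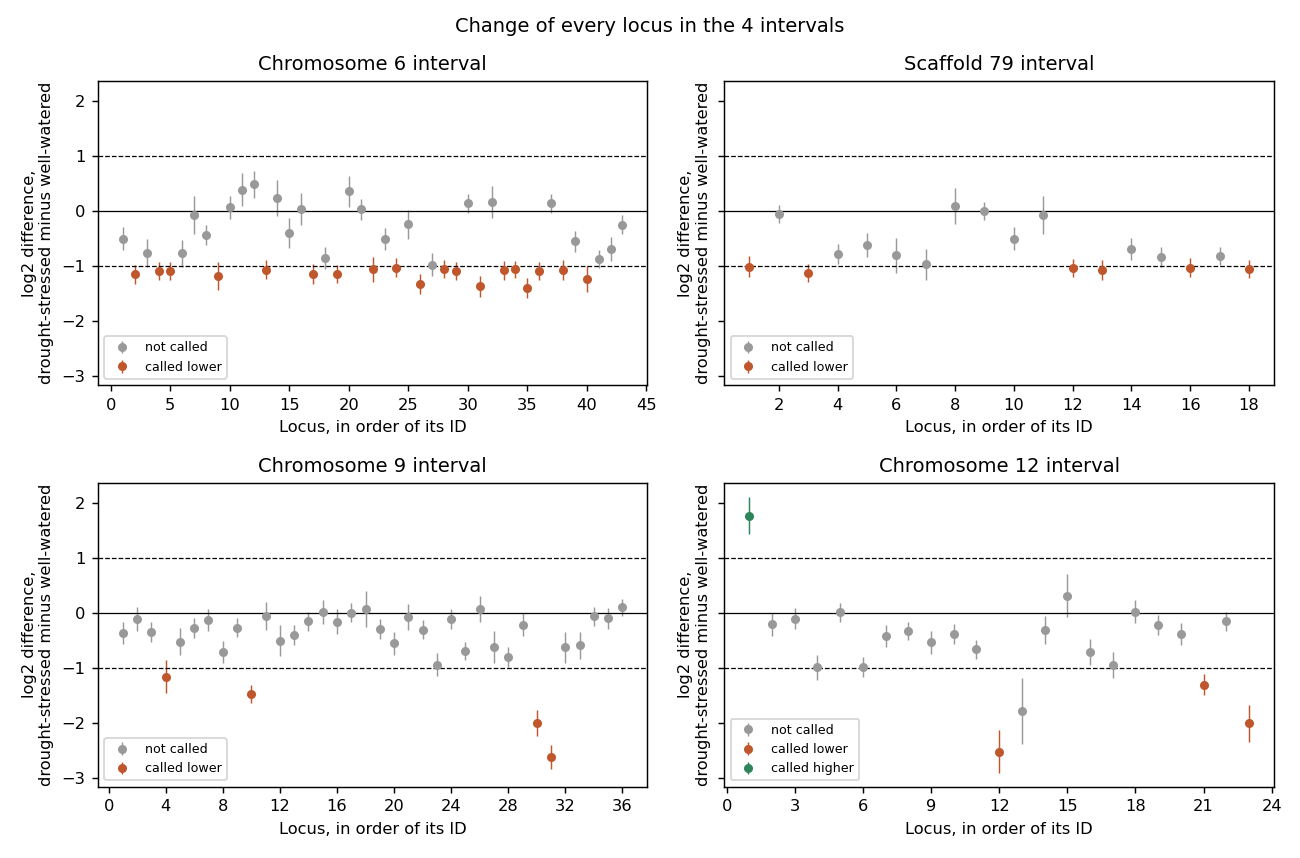
Log2 difference of each locus (drought-stressed minus well-watered, vertical axis, bars are the standard error of the limma fit) against its rank in ID order (horizontal axis), with colours for the call and dashed lines at a log2 difference of 1 and -1. On chromosome 6 and scaffold 79 the called loci lie in a narrow band between -1.40 and -1.01, while chromosomes 9 and 12 have few called loci and these reach -2.62 and -2.52.

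Chromosome 6 held the most called loci. Of its 42 distinct profiles, 19 were called lower, none was called higher, and the groups did not overlap in 27. The median log2 difference was -0.86, with quartiles at -1.08 and -0.23. The called profiles were packed just past the 2-fold line, with 16 of the 19 between -1.25 and -1 and only 3 below -1.25. The 16 include those of 10 loci with near-identical profiles, described below. The lowest of the interval was Glyma06g43440, a match to the auxin-induced protein 10A5. It stood at -0.84, -0.49 and -0.78 in drought-stressed plants 1, 2 and 4, against 0.72, 0.49 and 0.87 in well-watered plants 14, 15 and 16, a log2 difference of -1.40 (standard error 0.18). Glyma06g43400, a match to the auxin-induced protein 6B, had -0.95, -0.72 and -0.44 in the drought-stressed plants, against 0.74, 0.44 and 0.79 in the well-watered plants, with a difference of -1.36 (standard error 0.19). In both, all drought-stressed plants lay below all well-watered plants. The tightest profile of all was that of Glyma06g43280, another 10A5 match, with a residual SD between plants of 0.079. Its drought-stressed plants had -0.51, -0.52 and -0.54, its well-watered plants 0.59, 0.73 and 0.51, and the difference was -1.14 (standard error 0.16).

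The called loci of chromosome 6 were spread along the interval. They formed 14 runs among its 43 loci, most of them a single locus with uncalled neighbours, and the longest ran over 4 loci from Glyma06g43420 to Glyma06g43450. Of the uncalled profiles, 9 lay above 0. The highest was Glyma06g43210, with 0.28, -0.091 and 0.86 in drought-stressed plants 1, 2 and 4, against -0.34, 0.091 and -0.18 in well-watered plants 14, 15 and 16. Next was Glyma06g43200, with -0.48, 0.55 and 0.40 in the drought-stressed plants, against 0.16, -0.71 and -0.16 in the well-watered plants. The groups overlapped in both, and neither difference, 0.49 (standard error 0.24) and 0.40 (standard error 0.30), was called. The profile shared by Glyma06g43390 and Glyma06g43460 was flat, with 0.24, 0.069 and -0.10 in the drought-stressed plants, against 0.033, -0.033 and -0.24 in the well-watered plants. None of the loci next to the interval, from Glyma06g43080 to Glyma06g43090 before it and from Glyma06g43530 to Glyma06g43540 after it, was called, and their differences ran from -0.24 to 0.056.

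Scaffold 79 resembled chromosome 6 in the size of its differences. Of its 18 profiles, 6 were called lower and none higher, and the groups did not overlap in 11. The median log2 difference was -0.81 and the lowest value -1.12. All 6 called profiles lay between -1.25 and -1, and 3 of them were profiles shared with chromosome 6. The lowest was Glyma0079s00220, a match to the auxin-induced protein 6B, with -0.66, -0.63 and -0.41 in drought-stressed plants 1, 2 and 4, against 0.59, 0.41 and 0.65 in well-watered plants 14, 15 and 16. The profile of Glyma0079s00320 and Glyma06g43470 followed, with -0.70, -0.82 and -0.33 in the drought-stressed plants, against 0.49, 0.33 and 0.53 in the well-watered plants, and a difference of -1.06 (standard error 0.18). The groups were apart in both. At the other end, Glyma0079s00270 had 0.75, 0.17 and -0.79 in the drought-stressed plants, a wider span than its well-watered plants, which had 0.054, -0.054 and -0.17. Glyma0079s00280 was level in both groups, with 0.073, -0.011 and -0.15 in the drought-stressed plants, against 0.073, 0.011 and -0.18 in the well-watered plants.

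Of the 5 profiles that chromosome 6 shares with scaffold 79, 3 were called lower and 2 were not. For Glyma06g43330 and Glyma0079s00350 the drought-stressed plants had -0.70, -0.50 and -0.35, against 0.62, 0.35 and 0.56 in the well-watered plants. For Glyma06g43370 and Glyma0079s00370 they had -0.64, -0.56 and -0.36, against 0.54, 0.36 and 0.67. Both were called lower, at -1.02 and -1.04, like the profile of Glyma06g43470 and Glyma0079s00320 above. Glyma06g43100 and Glyma0079s00290 were not called, with 0.052, -0.28 and -0.17 in the drought-stressed plants, against 0.59, 0.56 and -0.052 in the well-watered plants. In Glyma06g43160 and Glyma0079s00300 1 well-watered plant decided the values, with 0.14, 0.056 and -0.056 in the drought-stressed plants, against 1.09, -0.39 and -0.36 in the well-watered plants. Its difference of -0.064 (standard error 0.35) changed to 0.42 without well-watered plant 14.

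Beyond the exact repeats, many profiles of these 2 intervals were nearly the same. Among the 6555 pairs of distinct profiles, 30 had a Pearson correlation over 0.99 across the 6 plants together with a mean absolute difference under 0.05 log2. Of these, 23 joined profiles of chromosome 6, 6 joined chromosome 6 with scaffold 79 and 1 joined chromosome 9 with scaffold 79. Linked together, they gave 3 groups. Glyma06g43350 with Glyma06g43440 and Glyma0079s00340 with Glyma09g35550 were pairs. The largest was a group of 11 profiles and 13 loci, 10 on chromosome 6 and 3 on scaffold 79. All 11 were called lower, with differences only from -1.13 to -1.02. The median over the group was -0.68, -0.56 and -0.39 in drought-stressed plants 1, 2 and 4, against 0.61, 0.39 and 0.63 in well-watered plants 14, 15 and 16. In each of the 11, drought-stressed plant 4 was the highest of its group and well-watered plant 15 the lowest, as they were in 32.1% and 26.3% of all probes. Profiles joined for their likeness largely share their plant order by construction, so these 11 are not 11 separate observations of it. With the groups apart, the centring on the median gives these 2 middle values the same size with opposite sign. With near-identical profiles merged, 19 entries out of 103 were called lower in place of 30 out of 115. Whether the probes of these loci bind each other's transcripts was not tested.

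**Figure D2:**
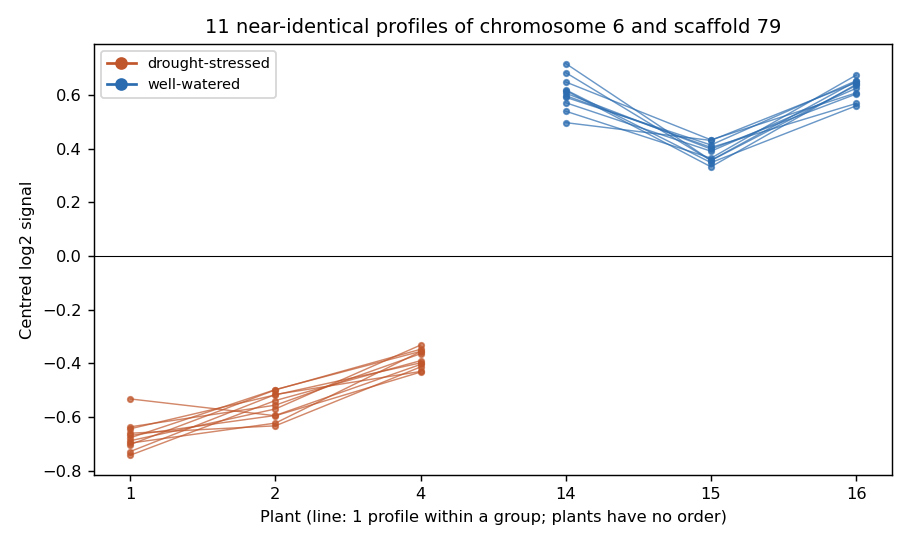
Centred log2 signal (vertical axis) of the 11 near-identical profiles of chromosome 6 and scaffold 79 in each plant (horizontal axis), drought-stressed plants 1, 2 and 4 on the left and well-watered plants 14, 15 and 16 on the right, 1 line per profile within a group. Lines run almost on top of each other, with plant 4 highest of the drought-stressed and plant 15 lowest of the well-watered plants in all 11.

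Among the 22 profiles called lower on chromosome 6 and scaffold 79, well-watered plant 15 was the lowest of its group in 21. Drought-stressed plant 4 was the highest of its group in 17. Both counts include the 11 near-identical profiles, which are not separate observations. The differences of the 22 ran from -1.40 to -1.01 with a median residual SD of 0.17. The 7 profiles called lower on chromosomes 9 and 12 differed from each other more. Well-watered plant 15 was lowest in 2 of the 7 and drought-stressed plant 4 highest in 2 of the 7, their differences ran from -2.62 to -1.15, and their median residual SD was 0.35.

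Chromosome 9 had few called loci but the largest single difference. Only 4 of its 36 profiles were called lower, its median log2 difference was -0.30, and the groups were apart in 11. Glyma09g35580, a match to the auxin-induced protein 6B, had -1.03, -1.21 and -1.11 in drought-stressed plants 1, 2 and 4, against 1.84, 1.64 and 1.03 in well-watered plants 14, 15 and 16. Its log2 difference of -2.62 (standard error 0.22), a 6.16-fold lower signal, was the lowest of all 115 profiles, and the gap between the groups was wider than the spread within either. Its neighbour Glyma09g35570, the 1 match to AT5G18020, had -0.66, -1.57 and -1.43 in the drought-stressed plants, against 0.86, 0.80 and 0.66 in the well-watered plants, and a difference of -1.99 (standard error 0.24). In both loci drought-stressed plant 1 was the highest of its group, by more in Glyma09g35570. Glyma09g35370, a match to the auxin-induced protein 15A, was tight in both groups, with -0.83, -0.65 and -0.66 in the drought-stressed plants, against 0.65, 0.74 and 0.87 in the well-watered plants, and a difference of -1.47 (standard error 0.16).

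The fourth called locus of chromosome 9, Glyma09g35310, had -0.18, -0.22 and -0.36 in drought-stressed plants 1, 2 and 4, against 0.18, 0.88 and 1.63 in well-watered plants 14, 15 and 16. The well-watered plants were spread over more than the difference of -1.15 (standard error 0.31). Leaving out any single plant other than well-watered plant 14 ended the call, and without well-watered plant 16 the difference was -0.79. The remaining 32 profiles lay between -0.94 and 0.11. The highest were Glyma09g35630, with -0.0071, 0.050 and 0.034 in the drought-stressed plants, against 0.0019, -0.0019 and -0.24 in the well-watered plants, and Glyma09g35450, where drought-stressed plant 1 at 1.01 and well-watered plant 14 at 0.80 stood apart from the other 4 plants. The 4 neighbours of the interval, from Glyma09g35260 to Glyma09g35270 before it and from Glyma09g35640 to Glyma09g35650 after it, were not called, with differences from -0.51 to 0.23.

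Chromosome 12 held the only locus called higher. Glyma12g03770, the first of the interval, had 0.63, 0.43 and 1.17 in drought-stressed plants 1, 2 and 4, against -0.43, -0.79 and -1.88 in well-watered plants 14, 15 and 16. Every drought-stressed plant lay above every well-watered plant, with a difference of 1.78 (standard error 0.34), and the locus was called in each fit that left out 1 plant, though not by the methods' t-test. No annotation ties it to the SAUR family here. Its neighbours outside the interval, Glyma12g03750 and Glyma12g03760, were not called, at 0.26 and 0.068.

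The same interval had 3 profiles called lower of 23, with a median log2 difference of -0.38. In 12 of the 23, every drought-stressed plant lay below every well-watered plant. Glyma12g03880 had -1.27, -0.65 and -1.81 in drought-stressed plants 1, 2 and 4, against 2.16, 0.65 and 1.01 in well-watered plants 14, 15 and 16, a difference of -2.52 (standard error 0.39). Glyma12g03990, the last of the interval, had -1.09, -0.72 and -0.59 in the drought-stressed plants, against 0.94, 2.08 and 0.59 in the well-watered plants, a difference of -2.00 (standard error 0.34). The groups were apart in both, but 1 well-watered plant stood well above the other 2, plant 14 in the first and plant 15 in the second, and neither was called by the methods' t-test. Glyma12g03970 was more even, with -1.01, -0.57 and -0.52 in the drought-stressed plants, against 0.76, 0.52 and 0.53 in the well-watered plants, and a difference of -1.30 (standard error 0.19).

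Glyma12g03890, next to Glyma12g03880, had the widest spread of all members, with a residual SD of 1.12. Its drought-stressed plants had -0.22, 0.16 and -0.58, against 2.03, -0.16 and 2.81 in well-watered plants 14, 15 and 16. Well-watered plant 15 lay among the drought-stressed plants, and the difference of -1.77 (standard error 0.60) was not called. Without that plant it was -2.63 and called. At the upper end, Glyma12g03910 had 0.80, 0.29 and -0.29 in the drought-stressed plants, against -0.47, -0.56 and 0.88 in the well-watered plants. The groups overlapped and its difference of 0.32 (standard error 0.39) was not called.

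Glyma0101s00200 of scaffold 101, a match to the auxin-induced protein X10A, had -0.59, -0.43 and -0.64 in drought-stressed plants 1, 2 and 4, against 0.60, 0.43 and 0.50 in well-watered plants 14, 15 and 16. The groups were apart by more than the spread within them, and the difference was -1.06 (standard error 0.16). Since Glyma12g14560 carries the same 6 values, the measurement belongs to either locus or to both.

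**Figure D3:**
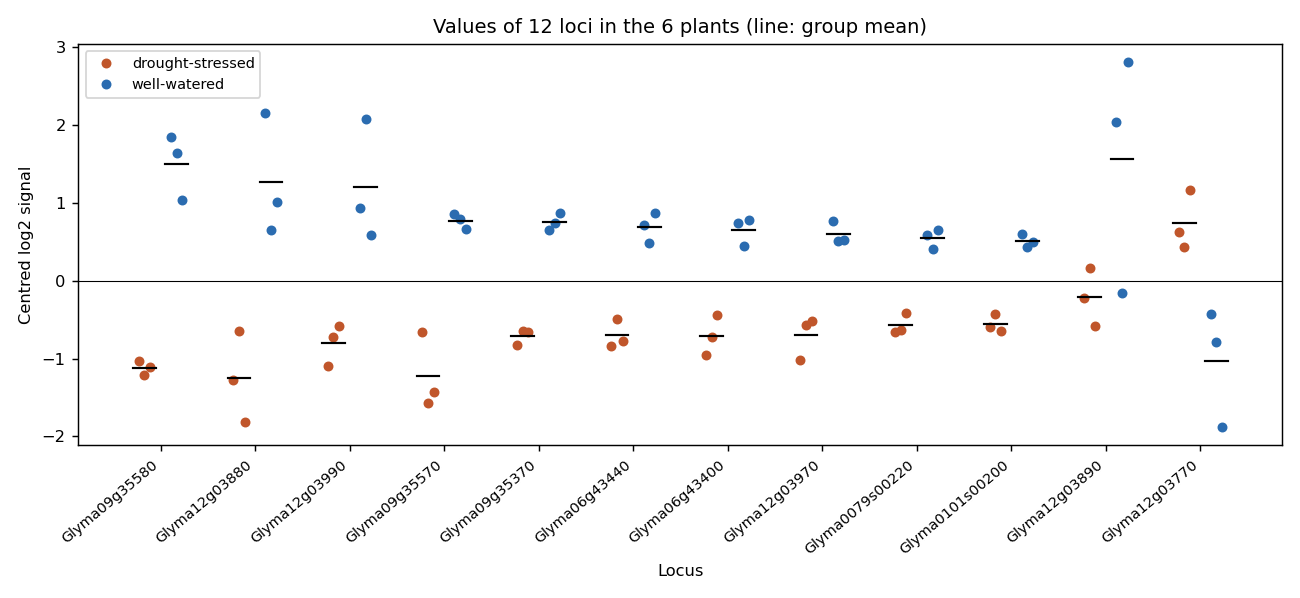
Centred log2 signal (vertical axis) of 12 loci in the 6 plants (horizontal axis: locus), drought-stressed plants left of well-watered plants, with lines at the group means. The groups do not overlap in 11 of the 12 loci, and Glyma12g03770 alone is higher in the drought-stressed plants, while in Glyma12g03890 well-watered plant 15 lies among the drought-stressed plants.

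Set side by side, chromosome 6 and scaffold 79 had the larger median differences and chromosomes 12 and 9 the smaller ones. Each distinct profile counts once in these medians, so near-identical profiles count separately, among them those of 10 chromosome 6 loci. Interval medians with near-identical profiles merged were not computed, so this order is given for distinct profiles only. The median profile of chromosome 6 lay at -0.53, -0.42 and -0.34 in drought-stressed plants 1, 2 and 4, against 0.50, 0.31 and 0.52 in well-watered plants 14, 15 and 16. That of scaffold 79 lay at -0.62, -0.55 and -0.19 in the drought-stressed plants, against 0.48, 0.25 and 0.35 in the well-watered plants. These 2 intervals, which share 5 profiles, differed from each other by less than the spread between plants. On chromosome 12 the medians were -0.22, -0.15 and -0.13 in the drought-stressed plants, against 0.40, 0.17 and 0.23 in the well-watered plants. On chromosome 9 they were -0.15, -0.13 and -0.066 in the drought-stressed plants, against 0.45, 0.074 and 0.044 in the well-watered plants. In all 4 intervals every drought-stressed plant had a lower median than every well-watered plant, although on chromosome 9 the gap was small and well-watered plant 14 stood far above the other 2. Well-watered plant 14 also had the highest median over all probes.

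**Figure D4:**
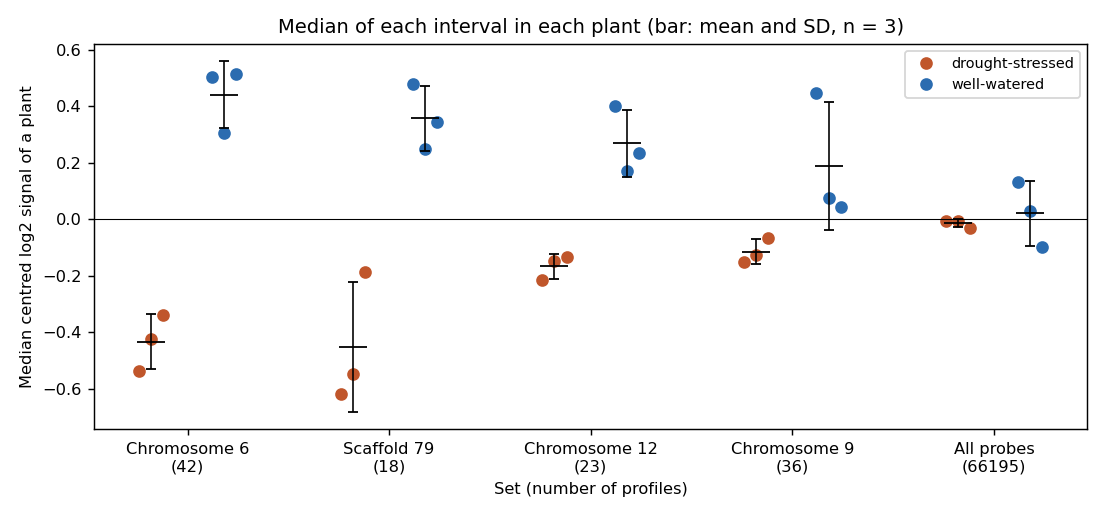
Median centred log2 signal over the distinct profiles of each interval and over all probes (vertical axis), 1 point per plant, drought-stressed plants left of well-watered plants, with bars at the mean and SD of 3 plants. The groups are farthest apart on chromosome 6 and scaffold 79 and closest on chromosome 9, where well-watered plant 14 is at 0.45 and the other 2 well-watered plants are at 0.074 and 0.044.

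Likeness between profiles was highest within scaffold 79 and did not follow the intervals elsewhere. The median Pearson correlation between 2 profiles over the 6 plants was 0.77 within scaffold 79, 0.69 between chromosome 6 and scaffold 79, 0.55 within chromosome 6, 0.46 within chromosome 12 and 0.40 within chromosome 9, where shared profiles were placed with chromosome 6. Across intervals it was 0.57 between scaffold 79 and chromosome 12 and 0.51 between chromosomes 6 and 12, both above the value within chromosome 12. It was 0.44 between scaffold 79 and chromosome 9, 0.42 between chromosomes 9 and 12 and 0.37 between chromosomes 6 and 9. These correlations describe 6 plants in 2 groups, and the difference between the groups enters all of them.

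The spread between plants within a group enters the calls behind the choice of the intervals, so it is a description too. The residual SD of the 115 profiles had a median of 0.24, beside 0.23 over all probes, and 61 of the 115 lay above the median of all probes. By interval the median was 0.20 on scaffold 79, 0.22 on chromosome 6, 0.26 on chromosome 9 and 0.28 on chromosome 12. With arrays centred on their medians the medians were 0.25 for the members and 0.22 for all probes, and with quantile normalization 0.25 and 0.22.

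The 25 loci with a match fall under 5 auxin-induced proteins of soybean. All 25 were called lower, which follows from a table that lists changed genes only. The 5 loci matched to 10A5, all on chromosome 6 or scaffold 79, had differences from -1.40 to -1.04, and the 4 matched to X15, all on chromosome 6, from -1.14 to -1.08. The 7 loci matched to 15A ran from -1.99 to -1.02 and the 7 matched to 6B from -2.62 to -1.06. In both classes the chromosome 9 loci lay below every locus of chromosome 6 and scaffold 79. The 2 loci matched to X10A, Glyma0079s00310 and Glyma0101s00200, had -1.03 and -1.06. A further 8 loci called lower had no match in that table, among them all 3 of chromosome 12. Of these 8, only Glyma12g03970 was also called by the methods' t-test.

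Other SAUR loci that the study's table lists outside the intervals were chosen on these samples too. Glyma12g15000, another match to AT4G38840, had a difference of -1.13. Matches to AT2G46690, also a SAUR gene of *Arabidopsis*, were Glyma16g02350 at -2.67, Glyma06g13910 at -1.49 and Glyma07g05760 at -1.20. Glyma16g02350 had -1.24, -1.22 and -1.32 in drought-stressed plants 1, 2 and 4, against 1.22, 1.51 and 1.49 in well-watered plants 14, 15 and 16, close in size to the lowest locus of the intervals. Glyma19g44810, a match to AT4G00880, had -1.36.

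A further list held the auxin genes annotated on chromosome 1 in the rows used here. It was not picked for how its genes moved, but it was set with earlier results of these data known. Of its 12 genes, 1 was called lower, 1 was called higher and 10 were not called, with a median log2 difference of -0.27. Over all probes 5.14% were called lower and 4.33% higher, with a median of -0.050. With so few genes, the list is a description only. Glyma01g36000, a match to AIR3, a protease gene induced by auxin in *Arabidopsis* roots, had -0.62, -0.59 and -1.31 in drought-stressed plants 1, 2 and 4, against 0.59, 0.80 and 1.08 in well-watered plants 14, 15 and 16. It fell, with a difference of -1.66 (standard error 0.23, adjusted p = 0.00065 from limma). Glyma01g33420, described as SAUR-type, had 0.70, 0.31 and 1.66 in the drought-stressed plants, against -0.52, -0.66 and -0.31 in the well-watered plants. This locus rose, and limma gave a difference of 1.38 with a standard error of 0.30 and an adjusted p of 0.010. The call was lost with the methods' t-test and without drought-stressed plant 4, where 0.998 was short of the fold threshold. The other 2 SAUR-type loci, Glyma01g17300 and Glyma01g37220, were not called, at -0.36 and 0.26. The 2 Aux/IAA genes, whose products repress auxin responses, were short of 2-fold, Glyma01g24100 at -0.79 (adjusted p = 0.021 from limma) and Glyma01g02350 at -0.62 (adjusted p = 0.036 from limma). The genes for auxin response factors, for a GH3 enzyme that conjugates auxin to amino acids and for auxin transport lay between -0.49 and 0.054.

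Many members lay near the 2-fold line, with 21 profiles between -1.25 and -1 and 30 between -1 and -0.5. The 21 include the 11 near-identical profiles. Just past the line were Glyma0079s00200 at -1.01 and the profile of Glyma06g43330 and Glyma0079s00350 at -1.02. Just short of it were Glyma12g03820 and Glyma12g03800, both at -0.99. Glyma0079s00200 had -0.49, -0.63 and -0.29 in drought-stressed plants 1, 2 and 4, against 0.51, 0.29 and 0.81 in well-watered plants 14, 15 and 16. Glyma12g03820 had -0.86, -0.47 and -0.35 in the drought-stressed plants, against 0.35, 0.54 and 0.38 in the well-watered plants. The 2 differ in the call and hardly in their log2 difference, and a count of called loci in an interval depends on where the arrays are set relative to each other. With a fixed 0.2 log2 added to all drought-stressed arrays, 10 profiles in place of 30 were called lower. This offset was set by hand and is not a normalization. It moved the median difference of all probes from -0.050 to 0.15, and the probes called lower from 3401 to 2525. The 10 profiles were 4 on chromosome 6, none on scaffold 79, 3 on chromosome 9 and 3 on chromosome 12. With arrays centred on their medians or quantile normalized, 26 were called lower in each case, and scaffold 79 had 3 and 2 in place of 6. Over all probes, 3196 were called lower with centred arrays and 3134 with quantile normalization.

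**Figure D5:**
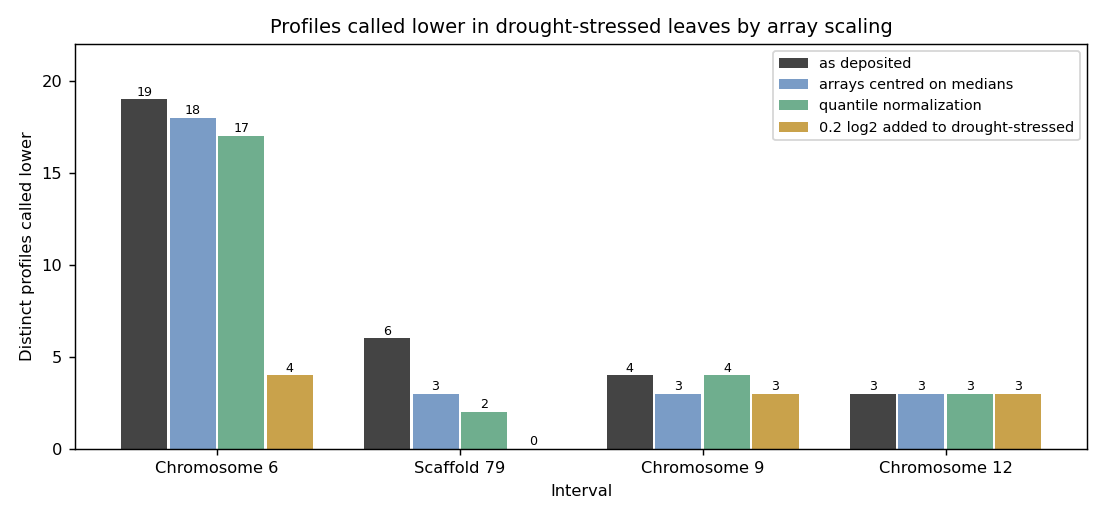
Number of distinct profiles called lower in drought-stressed leaves (vertical axis) in each interval (horizontal axis). Bars are for arrays as deposited, centred on their medians, quantile normalized, and with a fixed 0.2 log2 added to the drought-stressed arrays. The count of chromosome 6 goes down to 4 and that of scaffold 79 to 0 when 0.2 log2 is added to the drought-stressed arrays, while chromosomes 9 and 12 keep 3 each.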

How the data were processed

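The authors summarised probe signals to genes by RMA in Affymetrix Expression Console (version not given in the sources used here), exported them on the log2 scale and set each array to its 75th percentile in GeneSpring. In the deposited log2 table every one of the 66195 probes has a median of 0 across arrays, which shows a further centring per probe. The score deposited beside it is the authors' signed fold change, given with their p-values. Neither was used, and that table served only to pair probes with gene IDs.

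All probes were fitted with limma 3.58.1 in R 4.3.3, with no filter and with Benjamini-Hochberg adjustment over all of them. The fit had 4 residual and 5.93 prior degrees of freedom, with a median standard error of 0.193, and precision is limited by the number of arrays. Exact permutation of 3 plants against 3 has a smallest p of 0.1. Each p-value sets a group difference against the spread between plants within groups, moderated over all probes. Plants were treated as independent, which could not be checked because the labels do not give the pots. The code was tested on simulated data. Near-identical profiles were joined by single linkage.

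Alternatives were 3 scalings, the methods' t-test, array quality weights, a robust prior, other fold minimums, other ways to count profiles, and each plant left out. Members, lists and settings were chosen with earlier results of these data known. The rule for naming loci took the 2 lowest and 2 highest profiles of each interval, the single scaffold locus, shared profiles, the 2 profiles nearest the fold threshold on each side, the largest and smallest residual SD, the 6 listed loci outside the intervals and the called genes of the chromosome 1 list. Other loci, such as Glyma09g35370 and Glyma12g03970, were named after their values were seen. Sequences of these gene models were not used here. SAUR genes elsewhere in the genome were not listed by annotation, because 0 of the IDs matched the gene table used here.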

Additional observations from a re-analysis of the deposited data

How the results depend on the processing

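Beside the 30 profiles called lower, the count was 23 by the methods' t-test, all of them among the 30, 24 with array quality weights, 30 with a robust prior and 33 with every locus counted. It was 10 with 0.2 log2 added to the drought-stressed arrays, 19 with near-identical profiles merged, 46 at a fold of at least 1.5 or with no fold minimum, and 4 at a fold of at least 3, and it ran from 19 to 34 when 1 plant was left out. Probes called over the whole array were recorded only for the deposited values and the scalings. For the other tests, fold minimums and plants left out, no share over all probes stands beside these counts. The 1 profile called higher became 0 by the methods' t-test. With 0.2 log2 added, the interval medians moved to -0.66 on chromosome 6, -0.096 on chromosome 9, -0.18 on chromosome 12, -0.61 on scaffold 79 and -0.86 on scaffold 101. The mean in place of the median gave -0.65, -0.47 and -0.55 on chromosomes 6, 9 and 12. Without 1 plant the chromosome 12 median ran from -0.50 to -0.34. The cause was not tested for these changes other than the shift and the merge, which follow from their construction.

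Signs were followed for the loci named under the rule or added to it, and among these they changed in 4 uncalled profiles. The profile of Glyma06g43160 and Glyma0079s00300 stood at 0.14 with 0.2 log2 added and at 0.15 with array quality weights, and that of Glyma0079s00280 at -0.023 with array quality weights. Without 1 plant, these 2 profiles ran from -0.32 to 0.42 and from -0.071 to 0.065, Glyma0079s00270 from -0.26 to 0.51 and Glyma09g35450 from -0.27 to 0.36. By the methods' t-test Glyma12g03880, Glyma12g03990 and Glyma12g03770 kept their differences but not their calls. The same held for Glyma0079s00200, Glyma06g43490, Glyma09g35310 and, on chromosome 1, Glyma01g33420. Outside the intervals, Glyma12g14560, Glyma12g15000 and Glyma07g05760 were short of 2-fold with 0.2 log2 added. Named members that fell short with it included Glyma0079s00220, Glyma0101s00200 and Glyma06g43280. No paired analysis was possible because the plant numbers of the 2 groups differ. The values hold no absolute signal, so signal over background is unknown.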
